A study of Homo sapiens with 3 samples.

Results

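Undifferentiated khES3 cells, an established human embryonic stem cell line, were compared after 5 hr in leucine-deprived medium and after 5 hr in lysine-deprived medium. The comparison used 2 of the series' 3 Affymetrix arrays, 1 for each deprivation. The remaining array measured the same line after 5 hr in complete medium, and its values are given alongside. Of 54675 probe sets on the array, 41091 name exactly 1 gene and are not controls, and these were the members of the comparison. They name 19775 genes, of which 12961 had a probe set above a filter on level, and 12198 of these were above the floor for dim signals on both deprived arrays. The labels name no treatment, genotype or passage that differs between the cultures beyond the medium. With 1 array for each condition there was no replicate and no test, and nothing in the labels separates the spread between cultures from a difference between media.

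Leucine and lysine are essential amino acids: human cells cannot make them and take them from the medium. When either is short, uncharged transfer RNA activates the kinase GCN2 (EIF2AK4), which phosphorylates the initiation factor eIF2. General translation slows, while the transcription factor ATF4 is translated more and switches on genes for amino acid import, synthesis and transfer RNA charging. The growth kinase complex mTORC1 also reads amino acid supply at the lysosome, and SESN2 is a cytosolic sensor of leucine for it. The comparison sets the transcripts of cells that lack leucine beside those of cells that lack another essential amino acid.

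The arrays were scaled to one trimmed mean, and the median signal was 90.6 on the leucine-deprived and 98.2 on the lysine-deprived array. The floor, set at the 40th percentile of each array, lay at 56.7 and 62.4. Transcripts of the added hybridisation controls (9 probe sets) differed between the deprived arrays by -0.21 to 0.14 on the log2 scale, with a median of 0.02. The mean signal of both deprived arrays lay 0.54 to 0.79 above complete medium for these controls. The ratio of 3′ to 5′ signal of ACTB, a measure of RNA or labelling quality on arrays of this kind, was 7.55 on the leucine-deprived and 11.2 on the lysine-deprived array, and 5.44 in complete medium. The same ratio of GAPDH was 1.23 on the leucine-deprived and 1.25 on the lysine-deprived array, and 1.08 in complete medium. The ACTB ratio moved with the comparison itself, and its part in the differences below was not tested. In these bulk samples, fewer cells of a kind and less RNA per cell cannot be told apart.

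The transcriptomes of leucine- and lysine-deprived cells lay close together. The median difference over all genes, leucine-deprived minus lysine-deprived in log2 signal, was 0.02, and 6728 genes lay above 0 and 6218 below. In all, 10124 of 12198 genes (83.0%) were within 1.5-fold of each other on both arrays. Among the 6481 brighter genes, those at or above the median level (a signal of about 623), 6143 (94.8%) were within 1.5-fold, and the SD of their differences was 0.29. For comparison, the SD of the same genes over complete medium was 0.31 for leucine deprivation and 0.40 for lysine deprivation, both against the same complete-medium array. No gene of 11914 was 2-fold higher than in complete medium on 1 deprived array and 2-fold lower on the other (0 genes). Such a gene must differ past 3-fold between the deprivations, which only 32 higher and 46 lower genes did, so this count adds little.

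A difference of at least 2-fold (1 on the log2 scale) separated 578 genes, 4.74% of those measured. Of these, 236 (1.93%) were higher in leucine-deprived cells and 342 (2.8%) were higher in lysine-deprived cells. That split leaned on the scaling: it was 323 against 298 after quantile normalization and 361 against 249 after centring each array on its median, which moved the median of all genes to 0.13. Nearly all of these genes were dim. The dimmer genes held 554 of them (9.69% of 5717), whereas the brighter genes held 24 (0.37% of 6481), 7 higher (0.108%) and 17 lower (0.262%). In 5 bins of equal size from dim to bright, 16.6%, 8.50%, 1.58%, 0.347% and 0.116% of the measured genes were past 2-fold. In the dimmest bin 95 genes were higher and 210 lower in leucine-deprived cells, and the median there was -0.16.

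**Figure D1:**
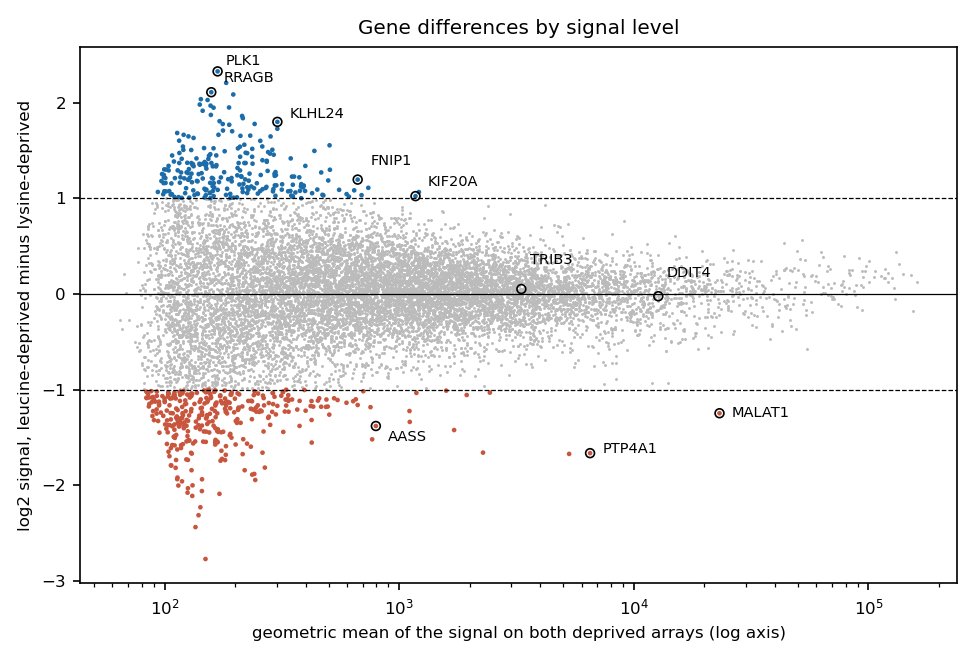
Each point is 1 of the 12198 genes above the floor on both deprived arrays; the horizontal axis is the geometric mean of both signals (log axis) and the vertical axis the log2 difference, leucine-deprived minus lysine-deprived. Blue and red points are the 236 higher and 342 lower genes past the dashed 2-fold lines, and circles mark genes named in the text. The spread of the plotted genes narrows from an SD of 0.72 in the dimmest of 5 bins of level to 0.25 in the brightest.

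Genes of the amino acid response stood high over complete medium on both deprived arrays and differed little between them. INHBE, an activin subunit gene switched on by amino acid lack and other stress, gave signals of 188, 4046 and 5637, listed here and below in the order complete medium, no leucine, no lysine. It was 1.39-fold higher without lysine than without leucine. TRIB3, a pseudokinase that restrains ATF4 itself, had signals of 242, 3376 and 3258, a difference of 0.05. Its other probe set was much dimmer (16.4, 184 and 79.7) and differed by 1.21. DDIT3, which encodes the transcription factor CHOP, had signals of 319, 2830.5 and 2776, and the deprived values differed 1.02-fold. DDIT4, an inhibitor of mTORC1 also known as REDD1, reached 12609 without leucine and 12819.7 without lysine from 1680.4 in complete medium.

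CHAC1, a glutathione-degrading enzyme, had signals of 299, 1930.3 and 1743, and ASNS, asparagine synthetase, of 2672, 6551 and 6875. The first differed by 0.15 and the second by -0.07. ATF4 itself, regulated mainly through translation, gave 15422, 23778 and 26784, a difference of -0.17. SESN2 is both an ATF4 target and the leucine sensor, and its signals were 437, 1224 and 1015. Its difference of 0.27 was the largest in favour of leucine deprivation among the ATF4 targets that were 2-fold above complete medium on both arrays, and its second probe set differed by 0.40.

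Over the whole list of ATF4 targets, 48 of 51 genes had a kept probe set. Their median difference between deprivations was 0.01, with 25 above 0 and 23 below, against 0.02 over all genes, and its sign changed under 3 of 11 alternatives. Within 1.5-fold of each other lay 46 of the 48 (95.8%), beside 83.0% of all genes and 94.8% of brighter genes, to which 42 of these targets belonged. Only 1 of the 48 (2.08%) was past 2-fold, beside 4.74% of all genes. Each deprivation had 25 targets at least 2-fold above complete medium, beside 2.66% of all genes without leucine and 4.22% without lysine. At least 2-fold below it were 0 targets without leucine (1.43% of all genes) and 1 without lysine (1.95%). The medians over complete medium were 1.15 and 1.09, and both rest on the same complete-medium array.

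In 22 targets the signal was at least 2-fold above complete medium on both arrays, a pattern shown by 1.27% of the 11914 genes above the floor on all 3 arrays. Between the deprivations these 22 spanned -0.38 to 0.27 with a median of -0.03, 9 being higher without leucine and 13 higher without lysine. VEGFA, the blood vessel growth factor and also a hypoxia target, was at the lower end with signals of 719, 3285 and 4268. Those named next were chosen after their values were seen. STC2, a secreted glycoprotein, had 450.1, 2842 and 3464 and differed by -0.29. SLC7A11, the cystine importer, had 3089, 13567 and 14192, and CEBPB, a transcription factor that pairs with ATF4, had 1889.7, 7475 and 7938. JDP2, a further leucine zipper factor, gave 1287 and 1286, the closest pair of the set. The MTHFD2 signal, a mitochondrial folate enzyme, was 24410.2 and 25473.

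**Figure D2:**
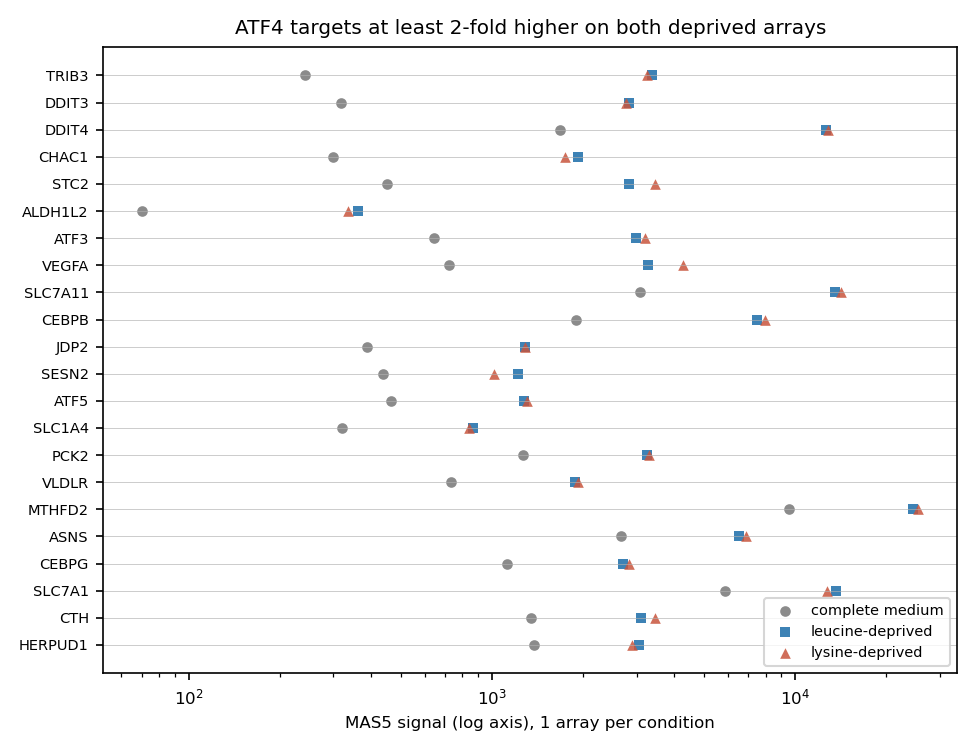
The signal (log axis) of the 22 ATF4 targets at least 2-fold above complete medium on both deprived arrays, with grey circles for complete medium, blue squares for leucine-deprived and red triangles for lysine-deprived cells, 1 array each. The square and the triangle of a gene nearly coincide, with differences from -0.38 (VEGFA) to 0.27 (SESN2).

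The targets furthest apart between deprivations were not among these 22. KLHL24, an adaptor of a ubiquitin ligase, was the target past 2-fold, with signals of 631, 564 and 162 and a difference of 1.80. Its other 4 probe sets differed by -0.70, 1.20, 0.41 and -0.28, so the probe sets of this gene went both ways. NUPR1, a stress-induced chromatin protein, was dim at 129, 205 and 334 and higher without lysine. AARS1, alanyl-tRNA synthetase, had 2826, 6263 and 4556 and was 1.37-fold higher without leucine. PHGDH, the first enzyme of serine synthesis, had 4639, 6241 and 4738, so its signal without lysine lay close to complete medium. PSPH, the last enzyme of the same pathway, went the other way at 4255, 5036 and 6902, with both of its probe sets at -0.45. Its second probe set, at 1302, 3136 and 4291, was more than 2-fold above complete medium on both arrays.

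The promoters of some of these genes hold the sequence that ATF4 and its C/EBP partners are known to bind, written here as TGATGNAA. RefSeq promoter windows of GRCh38.p14, 250 bases before to 50 after each gene's start, were searched for it on both strands. A match was found in 10 of 39 ATF4 targets with a window (25.6%), in 1.73% of the windows of 10510 kept genes and in 3.67% of all 27305 windows. Among the 22 targets above, 19 had a window and 5 of those a match. Of the genes 2-fold apart between deprivations, 3 of 189 higher (1.59%) and 3 of 252 lower ones (1.19%) had a match, a share near that of all kept genes. Windows of 4 targets that stood at like levels on both arrays are shown, with the match in capitals and the rest in lower case, 5′ to 3′ on the gene's strand. CHAC1 (chr15:40953221-40953520, plus strand) has its match, on the opposite strand, beginning at position -209 from the gene's start, ATF3 (chr1:212565157-212565456, plus strand) at -191, ASNS (chr7:97872359-97872658, minus strand) at -68 and SLC7A1 (chr13:29595639-29595938, minus strand) at 7.
CHAC1: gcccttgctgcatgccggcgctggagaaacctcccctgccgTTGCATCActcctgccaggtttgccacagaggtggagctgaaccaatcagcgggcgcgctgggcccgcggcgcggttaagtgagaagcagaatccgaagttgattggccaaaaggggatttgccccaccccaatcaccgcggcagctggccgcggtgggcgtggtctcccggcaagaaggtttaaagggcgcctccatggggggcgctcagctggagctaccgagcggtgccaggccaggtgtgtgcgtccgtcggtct
ATF3: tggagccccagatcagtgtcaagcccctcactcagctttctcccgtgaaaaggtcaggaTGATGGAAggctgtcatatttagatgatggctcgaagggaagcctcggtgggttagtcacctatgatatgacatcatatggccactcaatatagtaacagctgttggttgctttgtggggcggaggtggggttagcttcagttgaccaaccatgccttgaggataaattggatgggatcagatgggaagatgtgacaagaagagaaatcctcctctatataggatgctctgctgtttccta
ASNS: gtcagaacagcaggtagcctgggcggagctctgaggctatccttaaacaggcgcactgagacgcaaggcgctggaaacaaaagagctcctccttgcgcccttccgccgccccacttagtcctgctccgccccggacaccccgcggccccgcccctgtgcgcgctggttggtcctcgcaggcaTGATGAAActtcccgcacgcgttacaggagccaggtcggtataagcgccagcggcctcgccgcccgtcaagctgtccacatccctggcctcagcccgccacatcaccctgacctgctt
SLC7A1: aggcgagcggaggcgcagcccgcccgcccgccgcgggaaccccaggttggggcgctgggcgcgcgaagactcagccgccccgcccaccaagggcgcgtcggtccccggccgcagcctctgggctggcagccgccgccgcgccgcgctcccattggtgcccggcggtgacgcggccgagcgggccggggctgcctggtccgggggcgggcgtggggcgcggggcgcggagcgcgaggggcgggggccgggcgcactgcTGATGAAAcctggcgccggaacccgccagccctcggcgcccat
A match is a description of letters in the window. ATF3, a stress transcription factor, had signals of 646, 2997 and 3204, and SLC7A1, the main importer of lysine and arginine, had 5885, 13640.5 and 12771. The lysine importer gene was thus 1.21 above complete medium without leucine and 1.12 above it without lysine, and both genes were chosen for their windows after their values were seen.

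The enzymes that charge transfer RNA leaned to the leucine-deprived side by small amounts. Of the 17 cytosolic aminoacyl-tRNA synthetases with a kept probe set (of 20), 15 were higher in leucine-deprived cells, with a median of 0.19, and 0 were past 2-fold. Of the 6481 brighter genes, the class that holds all 17, 54.9% lay above 0 and 0.37% were past 2-fold. FARSA, a subunit of phenylalanyl-tRNA synthetase, had the largest difference, with signals of 852, 1121 and 769. GARS1, for glycine, had 25520.4, 48211 and 40136 and IARS1, for isoleucine, 18879, 26902 and 22747. TARS1, for threonine, was the largest exception with 14051, 16626 and 19447. The medians over complete medium were 0.51 without leucine and 0.38 without lysine.

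The synthetases of the missing amino acids were within the range of the others. LARS1, leucyl-tRNA synthetase, gave 5103, 6512 and 5702, a difference of 0.19. Its other 3 probe sets went the opposite way at -0.41, -0.13 and -0.71. KARS1, lysyl-tRNA synthetase, had 30242, 32172 and 29547 and differed by 0.12, with its other probe set at 0.25. KARS1 was thus lower in the cells without lysine on both of its probe sets, whereas the probe sets of LARS1 disagreed in sign.

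The mitochondrial synthetases had a median of 0.19 as well, with 11 of 15 above 0. SARS2, for serine, had 572, 679.7 and 365, and MARS2, for methionine, 464, 556 and 318, so both were below complete medium only on the lysine-deprived array. CARS2, for cysteine, differed by 0.62 on its brightest probe set and from -1.42 to 1.51 over its 3 probe sets.

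Amino acid carriers showed no shared lean, with 28 of 30 kept, a median of 0.04, 16 above 0 and 12 below. SLC38A4, a carrier of small neutral amino acids, was the member past 2-fold (1 of 27 measured, beside 4.74% of all genes). Its signals of 157, 59.1 and 125 lay close to the floor. SLC16A10, a carrier of aromatic amino acids, had 961, 1369.7 and 766 and was 1.79-fold higher without leucine. SLC43A2, a carrier of large neutral amino acids that include leucine, was dim at 95.8, 161 and 251. Carriers for the missing amino acids were singled out after their values were seen. SLC7A5 and its partner SLC3A2, which bring in leucine, had 4789.7, 9444 and 8823 and 1854, 3406 and 3307, and differed by 0.10 and 0.04. SLC43A1, a further leucine carrier, had 299, 436 and 599, lower without leucine than without lysine.

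The breakdown pathways of the missing amino acids were also set side by side. For leucine, 14 of 15 enzymes had a kept probe set, with a median of 0.14 and 8 above 0. BCAT2, the mitochondrial transaminase that takes the first step of leucine breakdown, had signals of 373, 233 and 467. It stood lowest in the cells that lacked leucine and was 2.0-fold higher without lysine, on 1 dim probe set. The subunits of the next enzyme went the other way: BCKDHB had 765, 724 and 504 and BCKDHA 557, 554 and 415. ACAT1, the thiolase shared with lysine breakdown, had 2929.8, 3029 and 2159.

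For lysine, all 15 enzymes were kept, with a median of 0.14 and 10 above 0. AASS, which carries out the first steps of lysine breakdown, had 745, 493 and 1283, so its brightest probe set was 2.6-fold higher in the cells that lacked lysine. Its other probe set, at 398, 525 and 394, went the opposite way by 0.42. HYKK, hydroxylysine kinase, was at least 2.9-fold higher without leucine, since its lysine-deprived signal of 58.0 was under the floor. TMLHE, which acts on trimethyllysine in carnitine synthesis, had 281, 251 and 413. Each pathway had 1 measured member past 2-fold of 14 measured, a count near the 4.74% of all genes.

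The genes that sense amino acids for mTORC1 had 40 of 42 members kept, a median of 0.10, 25 above 0 and 15 below. Past 2-fold were 2 of the 40 (5%), both higher without leucine, beside 4.74% of all genes either way and 1.93% higher. RRAGB, a Rag GTPase that carries the amino acid signal to mTORC1, had 185, 328 and 76.2, on 1 dim probe set. FNIP1, a partner of folliculin in the same lysosomal machinery, had 896, 1007 and 439.7 and was 2.29-fold higher without leucine. The other 3 probe sets of FNIP1 had signals of 52.9 to 151 on the deprived arrays and differed by -0.31, -0.03 and -1.20, and the mean of all 4 was -0.086. FNIP2, its paralogue, had 705, 1038 and 571, with a lowest probe set of -0.08.

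In the same list SESN3, a sestrin gene under FOXO control, was higher without lysine at 1239.9, 1012 and 1771, and both of its probe sets went that way (-0.63 the smaller). DEPDC5 and WDR24 belong to the opposed GATOR complexes. The first had 143, 229.7 and 134 and the second 18.7, 152 and 251, both dim. MTOR and RPTOR, singled out after their values were seen, differed by -0.20 and -0.49. Over complete medium the list's medians were 0.01 without leucine and -0.08 without lysine; SESN2 and DDIT4, described above, are members that stood far higher.

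The machinery upstream of ATF4 had all 18 members kept and a median of 0.07. EIF2AK4, which encodes the kinase GCN2, had 2255, 1855 and 3066, 1.65-fold higher without lysine, and its second probe set differed by -0.08. ABCF3, an ATPase of the ABC family, was the member past 2-fold (1 of 18, beside 4.74% of all genes), with 569, 400.0 and 139.8 on 1 probe set. EIF2B3, a subunit of the exchange factor that phosphorylated eIF2 blocks, had 1740.4, 1809 and 1352. PPP1R15A, which directs the phosphatase of eIF2, had 205, 267 and 354, and its other probe set went the opposite way at 1.80.

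Among brighter genes 7 were past 2-fold on the leucine-deprived side and 17 on the other, and the naming rule lists the 15 furthest out each way. The 15 highest in leucine- over lysine-deprived cells were FNIP1, NUDT3, CCDC82, BANF1, AP1M1, KIF20A, GTF2H4, ANAPC15, GPSM1, TMEM158, PCDHB5, HSP90B1, TNRC6A, BLTP1 and PRDM2, from 1.20 down to 0.89. On the lysine-deprived array all 15 lay below complete medium, while the leucine-deprived value was above it in 12 and the nearer of both in 12. These genes were chosen for a large difference between the deprivations, so such counts against complete medium are partly fixed by the choice. BANF1, which tethers DNA to the nuclear envelope, had 1952, 1755 and 839. KIF20A, a kinesin of cell division, had 1666, 1673 and 823, so its leucine-deprived signal matched complete medium. AP1M1, a clathrin adaptor subunit, had 612, 989 and 483, and its second probe set, under the floor without lysine, differed by 0.93. NUDT3, a phosphatase of inositol and diadenosine phosphates, had 1105, 1085 and 503 on its brightest probe set and a difference of -2.17 on another, with a mean of -0.093 over its 4 sets. HSP90B1, the HSP90 of the endoplasmic reticulum, had 4073, 5794 and 3039 on 1 probe set and a difference of 0.09 on the other.

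The 15 lowest were NACA4P, PTP4A1, QNG1, TMEM147-AS1, ZNF160, AASS, RWDD3, MALAT1, LIMD1, FBXW12, HERC4, TTF2, CDK13, AAMDC and TRMT6, from -1.67 to -1.03. All 15 lay above complete medium on the lysine-deprived array, and 12 lay below it on the leucine-deprived array. These counts too are partly fixed by the choice of genes. PTP4A1, a growth-associated phosphatase, had 3254, 3657 and 11586, a 3.17-fold difference. Its other 3 probe sets, with leucine-deprived signals of 1063 to 3243, differed by 0.16, 0.53 and 0.15 and so did not share it. MALAT1, an abundant nuclear long noncoding RNA, had 18761, 15046 and 35704. Of its 12 probe sets, 9 were higher in lysine-deprived and 3 in leucine-deprived cells. Its second brightest, at 4832, 4100.1 and 10539.9, differed by -1.36, and the only one without a suffix for shared or unrelated transcripts, at 428, 453 and 309, by 0.55.

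Many of the lowest genes rested on probe sets with the suffix x_at, which the array's maker gives to sets that may bind unrelated transcripts. Such sets stood for 437 of the 6481 brighter genes (6.74%) but for 7 of the 17 brighter genes 2-fold lower (41.2%), and for 0 of the 7 that were higher. NACA4P, a pseudogene of a ribosome-associated complex subunit, is one of them, with 4785, 2969 and 9459, and its probes cannot be told apart here from transcripts of the parent gene. QNG1, an enzyme that salvages the transfer RNA base queuosine, had 1204, 1281 and 4044 on its x_at set and 627, 775 and 875, a difference of -0.17, on the other. ZNF160, a zinc finger gene, showed 1284, 1047 and 2806. RWDD3, HERC4 and TTF2, which rest on plain probe sets, had 1398, 698 and 1763, then 849, 432 and 939, then 661, 446 and 957, each lower than complete medium without leucine. HERC4 has further probe sets, which differed by -0.14 and 0.90, so its sets disagreed in sign. The part of the suffix in these differences was not tested.

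Genes with several probe sets allowed a check within the arrays. Of 65 genes 2-fold higher without leucine on their brightest probe set, 29 had a next brightest set that differed the same way (44.6%, 95% interval 32.3 to 57.5 by the exact Clopper-Pearson method). For genes 2-fold lower it did so in 53 of 102 (52.0%, 41.8 to 62.0). Over differences of any size the share was 3136 of 5897 (53.2%, 51.9 to 54.5), which lies inside both intervals. The next probe set was itself past 2-fold in the same direction in 8 of 65 (12.3%) and 19 of 102 (18.6%), beside 306 of 5897 (5.19%) for brightest differences of any size. Most of the called genes were dimmer ones, so the like comparison is within dimmer genes. There it was 8 of 61 higher (13.1%) and 17 of 90 lower genes (18.9%), beside 190 of 2037 (9.33%) for any size. Among brighter genes it agreed in direction in 2 of 4 higher and 8 of 12 lower genes (66.7%, 34.9 to 90.1). The intervals cover counting error and treat genes as independent. The SD between probe sets of one gene was 0.58 over 5969 genes and 0.51 over 3860 brighter genes. It takes in their dimmer probe sets and those with 1 deprived signal under the floor. The SD of 0.29 of brighter genes between the arrays is over their brightest sets only, so these SDs are not at like levels of signal.

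**Figure D3:**
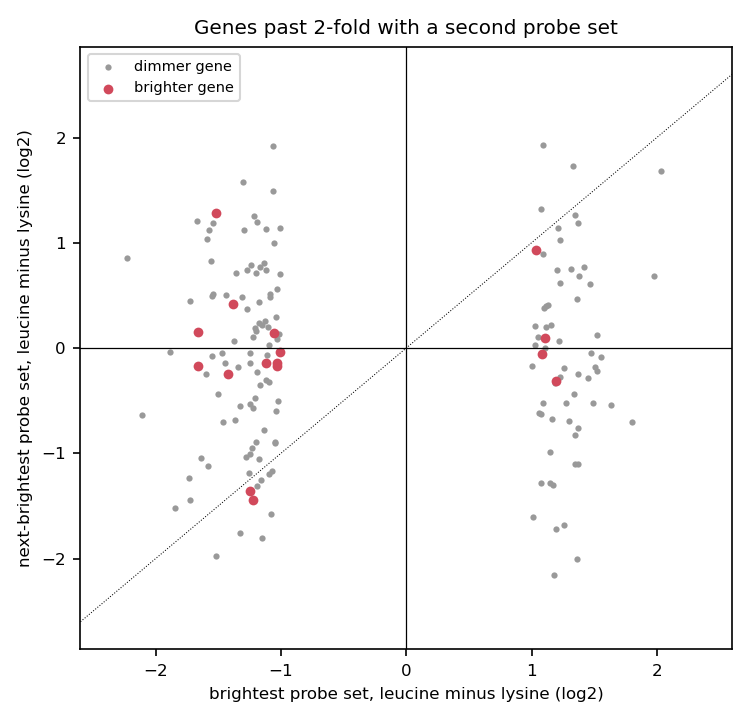
For genes at least 2-fold apart with a second kept probe set, the log2 difference (leucine-deprived minus lysine-deprived) on the brightest probe set is on the horizontal axis and that on the next brightest on the vertical axis; red points are brighter genes and the dotted line marks equal values. Points lie on both sides of 0 vertically, 29 of 65 on the same side to the right and 53 of 102 to the left.

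A few genes differed the same way past 2-fold on every probe set. Of 5020 genes with several kept probe sets, all above the floor on both deprived arrays, 2 were higher and 7 lower, and the brightest of these lay at the 49.1 percentile of level. PLXNA2, a semaphorin receptor, and SCML1, a Polycomb-related protein, were higher without leucine. PLXNA2 had 174, 226 and 88.5 and differed by 1.35 and 1.26, and SCML1 had 487, 549 and 259.8 and differed by 1.08 and 1.32. Higher without lysine were TPCN1, TBC1D8B, PECR, AFAP1L1, C1orf56, NOCT and WNT2B, of which the last 4 fall outside the naming rule and were named after their values were seen. TPCN1, a cation channel of endolysosomes, had 199.96, 116 and 416, with differences of -1.84 and -1.52. PECR, a peroxisomal enzyme of fatty acid elongation, had 494, 445 and 995, with -1.16 and -1.25, and NOCT, the circadian deadenylase-like phosphatase nocturnin, had 270.0, 279 and 629.5. Where a second probe set was allowed to reach the floor, PARP10, a mono-ADP-ribosyltransferase, led the higher genes with 163, 289 and 70.5 and differences of 2.04 and 1.68.

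Mitotic genes leaned to the leucine-deprived side. Of 72 kept genes of the G2/M, spindle and kinetochore list (of 73), 50 were higher in leucine-deprived and 22 in lysine-deprived cells, with a median of 0.09. Brighter genes, the class that holds 65 of the 72, had a median of 0.03, with 54.9% of them above 0. Past 2-fold were 2 of the 71 measured, both higher without leucine, beside 1.93% of all genes. Below complete medium lay 50 members without leucine and 55 without lysine, with medians of -0.16 and -0.32. Over the 37 members with a second probe set, the median of those sets was 0.35. These are fewer genes than the 72, and their second sets are dimmer and include bounds, so this median and the 0.09 are not like for like.

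PLK1, the polo-like kinase of mitotic entry, had 298, 377 and 75.2, a 5.02-fold difference on its only kept probe set. Its lysine-deprived signal was near the floor of 62.4. INCENP, a subunit of the chromosomal passenger complex, had 346, 187 and 28.1, a bound of 1.59, since the lysine-deprived signal was under the floor. CDC25C, the phosphatase that activates CDK1, had 735, 959 and 541, with its other probe set at 1.24. CCNF, cyclin F, had 849, 923 and 552 and -0.01 on the other probe set, and KIF18A, a kinesin of chromosome alignment, had 446, 647 and 422. In all of these the lysine-deprived value was the lowest of the 3 arrays. Those plotted beyond them were chosen after their values were seen. CDK1, the mitotic kinase, went the opposite way at 7267, 4506 and 6434, with its 3 probe sets from -0.51 to 0.53.

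**Figure D4:**
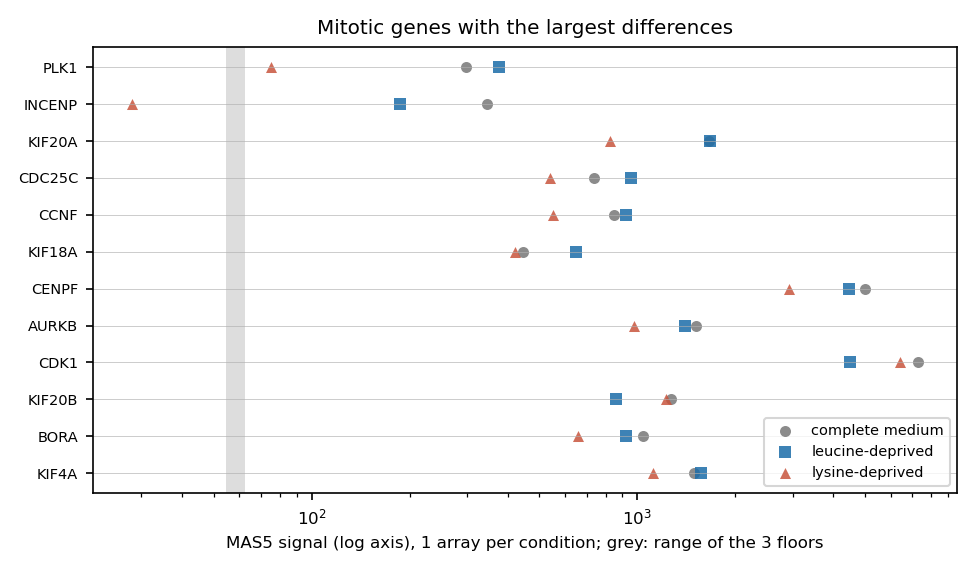
The signal (log axis) of the 12 mitotic genes with the largest difference between deprivations, with grey circles for complete medium, blue squares for leucine-deprived and red triangles for lysine-deprived cells, 1 array each; the grey band spans the floors of the 3 arrays. The lysine-deprived value is the lowest in 10 of the 12, the exceptions being CDK1 and KIF20B.

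Promoters of mitotic genes often hold the letters TTTGAA, known as the cell cycle homology region, through which they are repressed outside division. On either strand it was found in 39 of 60 windows of this list (65%), in 9.83% of the windows of kept genes and in 15.4% of all windows. The median difference between deprivations was 0.09 for list members with a match and 0.08 for those without. The window of PLK1 (chr16:23678639-23678938, plus strand), the gene furthest apart in the list, is shown because its match, in capitals, begins at -29 from the gene's start. KIF20A had none in its window. Both motifs were searched separately, so their matches may overlap.
PLK1: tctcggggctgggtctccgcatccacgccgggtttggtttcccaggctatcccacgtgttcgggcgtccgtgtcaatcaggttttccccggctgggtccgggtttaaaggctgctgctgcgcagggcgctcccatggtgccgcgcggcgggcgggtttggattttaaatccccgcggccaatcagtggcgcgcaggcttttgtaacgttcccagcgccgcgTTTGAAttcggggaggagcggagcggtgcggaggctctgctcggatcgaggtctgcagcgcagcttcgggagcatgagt

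Genes of the G1/S phase and DNA replication, all 43 kept, had a median of 0.05 with 25 above 0. E2F1, the factor that drives the entry into S phase, was the member past 2-fold (1 of 43, beside 4.74% of all genes) at 329.9, 134 and 406, lowest without leucine, and its second probe set differed by -0.24. RFC4, a clamp loader subunit, had 5789, 5811 and 9750.5, higher without lysine alone. CDK2, the kinase of the same step, had 1224, 1305 and 968, with both probe sets higher without leucine. The replication genes therefore held differences in both directions, in contrast to the sign of most mitotic genes; whether the lists differ was not tested.

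Among the p53 targets CDKN1A, the cell cycle inhibitor p21, had 689, 1000.2 and 643, above complete medium without leucine only. TP53INP1, a stress protein of autophagy and death, had 1729, 1378 and 825, and MDM2, the p53 ligase, had 6643, 6731 and 10530.3 with 7 probe sets from -0.65 to 1.19. The list of 23 kept targets was balanced, with 11 above 0 and 12 below. In the BCL2 family, BMF and BCL2L2, 2 of 19 measured members, were past 2-fold and higher without lysine, beside 2.8% of all genes and, either way, 9.69% of dimmer ones. BMF, a death-promoting member, had 177, 91.3 and 247, and BCL2L2, a protective one, 299, 203 and 427, both dim and on 1 probe set.

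The medians of the chaperone and sterol synthesis lists lay below complete medium on both deprived arrays, and lower without lysine. For the cytosolic heat shock list (19 of 24 kept) the median difference was 0.12, with 12 above 0 and 0 past 2-fold, and the medians over complete medium were -0.28 and -0.47. BAG3, a cochaperone, had 1492, 1476 and 946, and DNAJA1, a partner of HSP70, had 12912, 5943 and 4575. HSP90AB1, a cytosolic HSP90, had 33414, 27489 and 21232, with all 3 probe sets from 0.37 to 0.58. FKBP4, a cochaperone of HSP90, went the other way at 2909, 2204 and 2848. The cholesterol list (18 of 24 kept) had a median of 0.12, with 13 above 0, and medians over complete medium of -0.36 and -0.53. SQLE, squalene epoxidase, had 6310.0, 4877 and 3263, and STARD4, a sterol carrier, 815, 824 and 540.4. MSMO1, a later enzyme of the pathway, had 6994, 3953 and 3102. Of either list, 0 measured members were past 2-fold between deprivations, beside 4.74% of all genes and 0.37% of the brighter genes, to which 15 of the 19 and 13 of the 18 belonged.

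In the endoplasmic reticulum list (23 of 24 kept) the median was 0.07 with 15 above 0. Beside HSP90B1, DNAJB9, a cofactor of its HSP70, had 569.8, 712 and 422, with its other probe set at -0.35. XBP1, the factor of the unfolded protein response, went the other way at 1761, 2466 and 3222. Immediate early genes had a median of 0.14, with 19 of 27 above 0, beside 52.0% of all genes. Of brighter genes, to which 17 of the 27 belonged, 54.9% lay above 0. MYC had 2367, 4402 and 3315 and IER2, chosen after its values were seen, 6382, 10669 and 8884, both above complete medium on either array and more so without leucine. FOSL1 and FOS were dim, at 233, 213 and 119 and 288, 243 and 148.

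FOXO and MondoA targets, which respond to growth factor and glucose signals, had a median of -0.00483 over 15 genes, with medians over complete medium of 0.31 and 0.51. CITED2, a regulator of CBP, had 326, 403 and 702 with both probe sets near -0.8, and KLF9, a transcription factor, 120.1, 120.3 and 208. IRS2, which couples the insulin receptor, had 1772, 3048 and 2166, higher without leucine. Autophagy and lysosome genes (37 of 41 kept) had a median of 0.05. ULK1, the kinase that starts autophagy under mTORC1 control, was the member past 2-fold at 358, 424 and 161, on 1 probe set, beside 4.74% of all genes. ATG4B, the protease that prepares ATG8 proteins, had 1154, 1487 and 829, with all 3 probe sets between 0.51 and 0.84, and CTSA, a lysosomal carboxypeptidase, 1141, 1376 and 804.

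Among biosynthetic genes the largest differences were in single members. MTHFD1, the cytosolic folate enzyme, had 9754, 10032 and 6500.4, against a median of 0.13 for the 14 kept serine, glycine and folate genes. ALDH1L1 of the same list was past 2-fold (1 of 14, beside 4.74% of all genes) at 156, 77.1 and 158, near the floor. CBS, which begins transsulfuration, had 2912, 3193 and 2191, in a list of 17 with a median of -0.03. Translation factors had a median of -0.00045 over 33. EIF3C, a subunit of the factor that brings messages to the ribosome, was past 2-fold (1 of 33, beside 4.74% of all genes). It was dim at 90.6, 65.4 and 169. EEF1A1, the elongation factor, had 114491, 153448 and 112816.

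Cytosolic ribosomal protein genes, among the brightest on the array, had 53 of 79 members kept. Their median was 0.12, with 39 above 0 and 14 below, and 0 were past 2-fold. Of brighter genes, to which 51 of these members belonged, 54.9% lay above 0 and 0.37% were past 2-fold. Above complete medium lay 51 of the 53 without leucine and 37 without lysine. RPS15 had 60028, 72756 and 53658 and RPL41, singled out after its values were seen, 117604, 149712 and 120642. RPS25 went the other way at 42389.5, 43052 and 55544. The lean depended on the scaling, as the list's median was 0 after quantile normalization and 0.23 after median centring. Mitochondrial ribosomal proteins (75 kept, median 0.05), respiratory chain subunits (67 kept, 0.03), ribosome biogenesis genes (46 kept, 0.03) and proteasome subunits (30 kept, 0.03) lay near the median of all genes. Together they had 0 members past 2-fold, near the 0.37% of brighter genes, to which nearly all of them belonged. RRP12, a ribosome export factor, had the largest difference among the biogenesis genes, at 1041, 1229 and 737, with both probe sets higher without leucine.

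Markers of the labelled stem cells were bright on both deprived arrays. Of 40 pluripotency genes 34 had a kept probe set, 32 of them among the brighter genes, and their summed signal was 413707 without leucine and 422545 without lysine, beside 410065 in complete medium. NANOG had 15765, 17274 and 15731 and SOX2 18755, 20742 and 21643, both core factors of pluripotency, with differences of 0.14 and -0.06. The dimmest SOX2 probe set, at 319, 216 and 90.4, differed by 1.26. The list's median was 0.07, with 18 above 0 and 16 below. Past 2-fold were 0 of the 33 measured, near the 0.37% of brighter genes. GDF3, a TGF-beta family ligand of stem cells, had 6075, 3949 and 2218. NODAL, the ligand that maintains pluripotency through SMAD2 and SMAD3, had 1008, 1076 and 625 with its second probe set at 0.97. ZFP42, a zinc finger marker also called REX1, went the other way at 8197, 6301 and 10424, with its 3 probe sets from -0.73 to 0.79.

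Mesoderm and endoderm markers were few or dim. Of 17 mesoderm markers 10 were kept and 1 was among the brighter genes, and of 13 endoderm markers 7 were kept with 0 among the brighter. Their summed signals were 2493 and 760.0 without leucine and 3079 and 962 without lysine. TBXT, the mesoderm factor brachyury, was past 2-fold (1 of 8 measured mesoderm markers, beside 9.69% of dimmer genes). Its signals were 171, 202 and 454, higher without lysine, on 1 probe set. MSX1 was at least 4.63-fold higher without lysine, with a leucine-deprived signal of 11.7 under the floor. CER1 and SOX17, of the endoderm, were under the floor without leucine as well, at 12.5 and 34.5, and at 155 and 145 without lysine. Others went the opposite way: EOMES, of the mesoderm, had 155 without leucine and 54.7, under the floor, without lysine, SNAI2 had 101 and 65.4, and AFP and CXCR4, of the endoderm list, differed by 0.43 and 0.27. In all, 5 mesoderm markers were higher without leucine and 5 without lysine, and 3 and 4 of the endoderm markers. The 3 kept ectoderm markers (1 of them brighter) and 6 kept trophoblast markers (3 brighter) summed to 5010.4 and 6707 without leucine, and to 4518 and 7206 without lysine.

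The fibroblast and feeder cell markers (12 of 16 kept, 8 of them among the brighter genes) summed to 68294 and 66817. Their median difference was 0.14, with 8 above 0 and 4 below. COL1A1, a collagen of fibroblasts, had 11552, 13186 and 18609, with its 5 probe sets from -1.68 to 0.58, and VIM, vimentin, 29146, 27144 and 22936. DCN, decorin, a defining fibroblast gene, was under the floor without leucine at 12.5 and reached 134 without lysine. TWIST1, a factor of mesenchymal cells, went the other way at 132, 269 and 139.6. Whether fibroblasts or feeder cells were present, and their part in the differences above, was not tested.

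**Figure D5:**
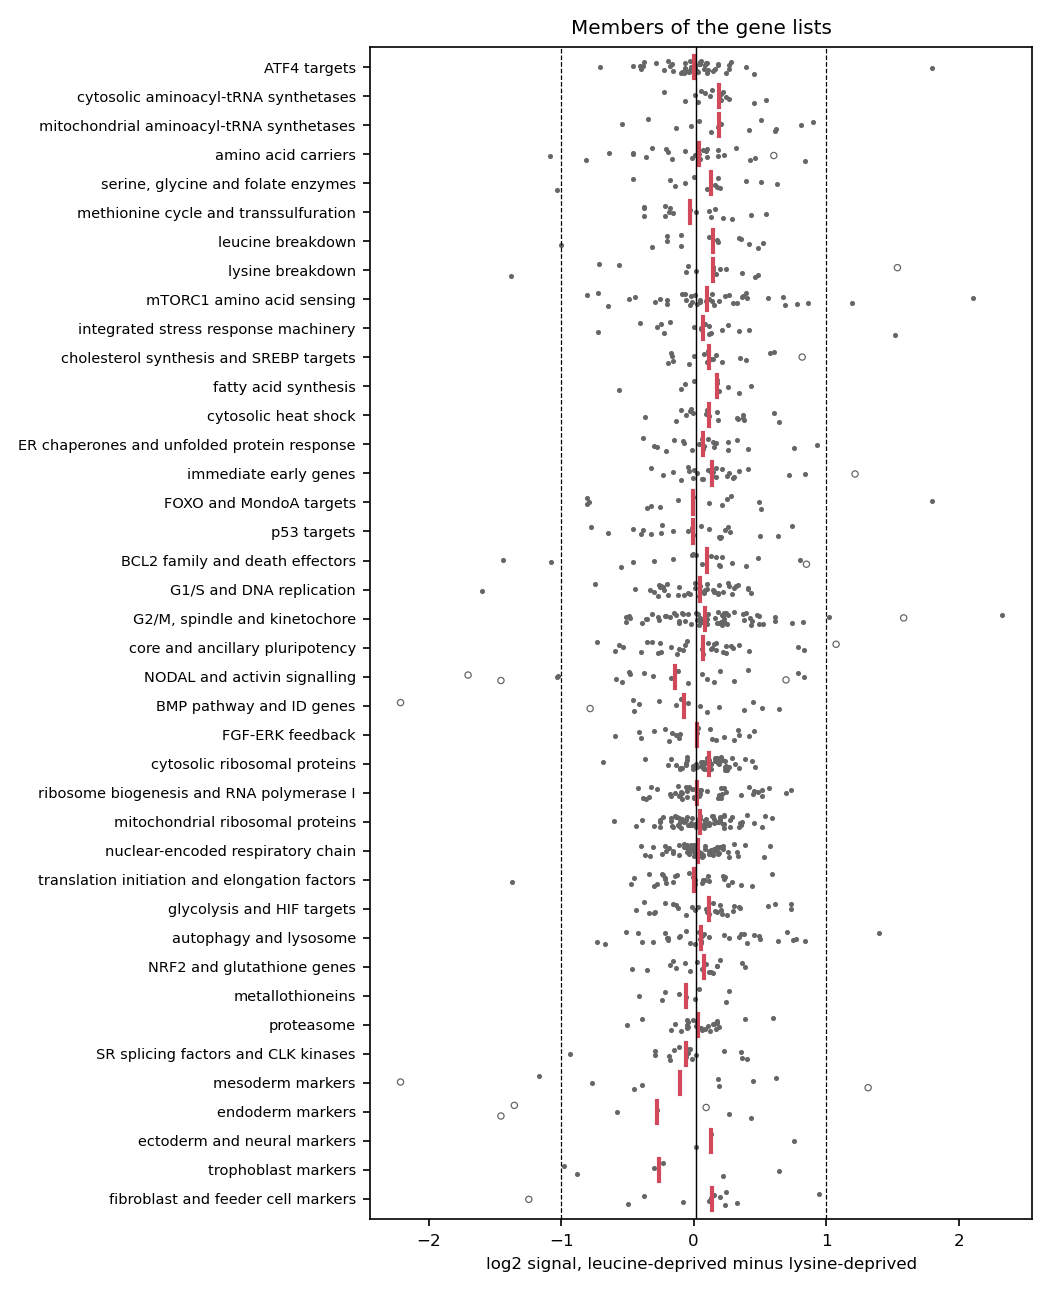
Each row is a gene list and each point a member's log2 difference, leucine-deprived minus lysine-deprived; open circles are bounds, where 1 of the signals was under the floor, the red bar is the list's median and dashed lines mark 2-fold. The solid line is the median of all genes at 0.02, and list medians run from -0.27 (endoderm markers) to 0.19 (both kinds of synthetase).

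At the edge of the 2-fold line the values ran without a gap. LEMD2, a nuclear envelope protein, was just past it with 253, 541 and 270.3, and BCAT2 was just past it in the other direction. ZDHHC12-DT and ZNF37BP fell just short, with 685, 388 and 194 and 115, 113 and 226. A further 229 genes were 2-fold higher and 286 lower as bounds, because 1 of the deprived signals was under the floor. The largest bounds were LRRC55 (at least 6.44-fold), TMEM106C (at least 6.34-fold) and USF1 (at least 5.14-fold) on the leucine-deprived side, and LINGO3 (at least 6.77-fold), TDH-AS1 (at least 6.19-fold) and RAB4B (at least 5.37-fold) on the other. The second probe set of TMEM106C went the opposite way by -1.04. Another 15 genes were at the floor on both arrays and have no difference.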

How the data were processed

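RNA of 3 culture conditions was hybridised to 1 array each. The authors deposited linear signal intensity values for each probe set, made with MAS5 per the submitters' processing notes. Its version and settings are not stated in the labels, and detection calls were not used here. Every array had a trimmed mean of 500.1, so the intensity values had been scaled, which removes any difference in total mRNA. Per the labels' protocols, cRNA was made from 100 ng of total RNA by 3′ in vitro transcription.

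Values under the 40th percentile of an array were set to it before log2 was taken. Probe sets were retained at or above the median level over the 3 arrays (23055 naming 1 gene), and a gene took its brightest one. A 2-fold difference counted where both deprived signals exceeded the floor; otherwise it was a bound. Of the singly named probe sets, 41037 matched the RefSeq gene table of GRCh38.p14, which with its promoter table gave names and windows; 1801 probe sets name several genes and 11721 none. The share of leucine and lysine residues in the proteins was not analysed here. No per-sample column was left unused (0 columns).

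The members and gene lists were chosen with earlier results of these data known. Genes named are the 15 highest and lowest brighter genes, the 10 highest and lowest whose probe sets all share a sign, at most 6 members of each list by size of difference, 14 anchors, the 3 largest bounds each way, any gene opposed 2-fold over complete medium (0 genes) and the nearest to 2-fold. Lists share members. Other settings tried were 3 scalings (median centring, cyclic loess and quantile), a floor at the 20th or 60th percentile, log2(value + 32) with no floor, a level filter at the 70th percentile or none, averaged probe sets, omission of s_at and x_at sets, 1.5-fold and 3-fold limits, and next-brightest probe sets. The calculations were tested on simulated data, with 3-fold changes placed in brighter genes only and alike on every probe set of a gene. Changes in dimmer genes, and probe sets of a gene that disagree, were not simulated. The tools were R 4.3.3 with limma 3.58.1, and Python 3.11.15 with pandas 2.3.3, numpy 2.4.6, scipy 1.17.1 and matplotlib 3.10.9.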

Additional observations from a re-analysis of the deposited data

How the results depend on the processing

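No paired analysis was possible because each condition had 1 array, and no array could be left out. The counts of 236 genes higher and 342 lower in leucine-deprived cells became 481 and 564 with a 20th percentile floor, 77 and 87 with a 60th percentile floor, and 74 and 71 with the level filter at the 70th. At 1.5-fold they were 945 and 1129, and at 3-fold 32 and 46. Median centring gave 361 higher and 249 lower; quantile (323 and 298) and cyclic loess normalization (247 and 274), no floor with log2(value + 32) (344 and 410), no filter on level (240 and 385), averaged probe sets (225 and 297) and leaving out s_at and x_at sets (177 and 324) stayed within 1.5 times. With averaged probe sets, FNIP1 was -0.086, NUDT3 -0.093 and AAMDC 0.00148. Without s_at and x_at sets, NUDT3 was -2.17, MALAT1 0.55, CDK13 0.18 and KLHL24 -0.70. The cause was not tested. For the 290 genes named by rule, 2618 of 2708 values under the alternatives moved by less than the spread and 83 moved further. The other 7 were changes of sign in genes past 2-fold. Changes of sign in genes short of 2-fold were not counted apart, and fall among the 2618 and the 83.

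Medians of the cytosolic synthetases (0.09 to 0.31) and of the mitotic list (0.06 to 0.35) kept their sign under all alternatives run. The 0.35 came from next-brightest probe sets, which only part of the mitotic list has. The ATF4 median ran from -0.02 to 0.14, the highest being over next-brightest probe sets of 25 targets, an alternative chosen after seeing the data, and changed sign in 3 of 11. Ribosomal proteins ran from 0 to 0.23. Of 40 list medians 22 changed sign under at least 1 alternative. The number of arrays limits the precision: 554 of the 578 genes past 2-fold were dimmer ones, and no value here measures the spread between cultures.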

Other observations

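Probe sets outside the comparison held differences too. Of 2623 kept probe sets that name no gene and were above the floor on both deprived arrays, 71 were at least 2-fold higher in leucine-deprived and 225 at least 2-fold higher in lysine-deprived cells (11.3% in all). Among those as bright as the brighter genes, 2 and 5 of 577 were past 2-fold. Probe sets that name several genes gave 28 and 27 of 1021 (5.39%), and 3 and 2 of 562 among the brighter ones.

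Genes at least 2-fold from complete medium on both deprived arrays were also compared between them. Of 151 that were higher on both, 144 lay within 1.5-fold between the deprivations, beside 83.0% of all genes, and 1 was past 2-fold, with a median of -0.07. Among the 43 brighter ones all 43 lay within 1.5-fold, beside 94.8% of brighter genes. Of 25 that were lower on both, 24 lay within 1.5-fold and 0 were past 2-fold, beside 4.74% of all genes. Both sets were chosen on values over the same complete-medium array, so their closeness is a description.

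The list of metallothioneins, which bind zinc and copper, with their regulator MTF1 and the zinc exporter SLC30A1 had medians of 0.67 without leucine and 0.72 without lysine over complete medium in 9 kept genes, and differed by a median of -0.06. MT1M had 1723, 4946 and 6597 and MT2A 32050.5, 50231 and 58306 in the order complete medium, no leucine, no lysine. MTF1 lay below complete medium on both arrays on its brightest probe set, at 643, 533 and 442. Its other sets had 301, 314 and 201, then 261, 183 and 265, and so were not below it on both arrays. HMOX1, heme oxygenase, of the NRF2 and glutathione list, had 1340.1, 3393 and 2589.8. SRSF11, a splicing factor, had 8615, 8619 and 16476, higher without lysine alone, and its 3 probe sets ran from -0.93 to 0.51.

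Glycolysis and HIF targets (31 of 32 kept) had a median of 0.12 with 20 above 0. NDRG1, a hypoxia and stress gene, had 249, 432 and 259, and SLC2A1, the glucose carrier GLUT1, 2140.1, 2884 and 1886, both highest without leucine. PKM, pyruvate kinase, differed by 0.73 on the brighter of its probe sets and by -1.60 on the other. FGF2, a growth factor of stem cell medium, had 2227, 2289 and 3447 on its brightest probe set and 1425, 2369 and 2209 on the other, so the sets disagreed on the higher deprivation.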
